A study of Mus musculus with 12 samples.

Results

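The genotype-by-stage interaction between the first and second meiotic metaphases asks, for each gene, whether its polysome-bound mRNA changed differently from metaphase I (MI) to metaphase II (MII) in mouse oocytes lacking Cnot6l than in wild-type oocytes. It was computed on log2(FPKM + 1), where FPKM is fragments per kilobase of transcript as scaled by the authors, as the MII minus MI change in Cnot6l-/- oocytes minus the same change in wild type. A positive interaction means that the mRNA gained more, or lost less, in Cnot6l-/- oocytes than in wild type. The contrast uses 8 of the 12 libraries of the series, 2 in each of 4 groups. It was tested in 11667 genes, those with a mean of at least 1 FPKM over the 12 libraries, of 23235 listed.

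The groups were Cnot6l-/- oocytes at MII (after 16 h of culture), Cnot6l-/- oocytes at MI (8 h), wild-type oocytes at MII (16 h) and wild-type oocytes at MI (8 h). The remaining 4 libraries were 2 Cnot6l-/- and 2 wild-type pools of oocytes at the germinal vesicle (GV) stage, taken 48 h after PMSG. They add to the estimate of the spread and are given as a starting level. All mice were C57BL/6 at postnatal day 21, each library was built by Tn5 tagmentation of 500 pg of amplified cDNA, and the RNA was the fraction bound to polysomes. How the Cnot6l allele was made, how many oocytes went into a pool, and whether replicates came from separate animals were not stated in the labels. The p-values therefore measure the spread between libraries, which may be technical.

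A fully grown oocyte does not transcribe, so its mRNAs change only by degradation, storage and translation. CNOT6L and its close relative CNOT6 are catalytic subunits of the CCR4-NOT complex, which shortens poly(A) tails and so starts mRNA decay. CNOT7 and CNOT8 are the other catalytic pair of the complex, BTG4 is an adaptor that joins the complex to maternal mRNAs, and ZFP36L2 is an RNA-binding protein that brings it to AU-rich 3' UTRs. In the other direction, dormant mRNAs with a cytoplasmic polyadenylation element (CPE) near the 3' end gain a longer tail and enter polysomes as meiosis resumes.

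Because CPEs mark the mRNAs that are recruited during maturation, the sites of several genes with a called interaction are shown. The letters are the transcript strand near the 3' end of the longest annotated coding transcript with a 3' UTR of at least 100 bases (GENCODE mouse release 1, build mm9), and capitals mark the searched motif, TTTTAT or TTTTAAT. In the first 7 genes the mRNA rose from MI to MII in wild type and the interaction was lower.
Dcp1a, chr14:31340196-31340225, plus strand: caaatatatttTTTTAATaaaatttcaaaa
Cks1b, chr3:89219394-89219423, minus strand: ttgattaaaggaagttTTTTATaatcttaa
E2f1, chr2:154385376-154385405, minus strand: tcctgctttgaTTTTAATaaatgttttgat
Lmo1, chr7:116282107-116282136, minus strand: atgtaatgcgaTTTTATtactggcgtggat
Ccrn4l, chr3:51055537-51055566, plus strand: ttacaaagagtgcTTTTAATatcttgtctc
Wee2, chr6:40416783-40416812, plus strand: tgtaaataaagaTTTTATcttatccaaaga
Cnot7, chr8:41578391-41578420, minus strand: cttaaggtacaTTTTATatcaataaaaata
The next 6 rose from MI to MII in Cnot6l-/- oocytes and fell in wild type.
Obox2, chr7:15983828-15983857, plus strand: aggtcttaattTTTTATtgttagagtatat
Tcl1, chr12:106455006-106455035, minus strand: aatgtgtgggaTTTTATgtggttctatttt
Omt2a, chr9:78159822-78159851, minus strand: ggttttaacggTTTTATaataaataaaagt
H1foo, chr6:115900176-115900205, plus strand: gattctgaagcTTTTATtgtctaataagct
Bcl2l10, chr9:75199387-75199416, plus strand: ccttaatacatTTTTAATaacttcaaattc
Btg4, chr9:50927903-50927932, plus strand: gataaatccctTTTTATgtctttttaaaag
Omt2b, a near copy of Omt2a, holds the same 30 letters, so reads from the 2 genes may have been split by the authors' counting. The Btg4 site lies beyond the end of that gene as deposited with the FPKM (chr9:50927805), so whether the measured mRNA holds it is not known.

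Facts of the libraries set the scale on which the interaction is read. Summed FPKM was 1211628 and 1213953 at MII and 1635234 and 1663871 at MI in Cnot6l-/- oocytes, against 889989 and 884142 at MII and 1040466 and 1063273 at MI in wild type. Wild-type MII libraries had the fewest genes above 0, with 2001 tested genes listed at 0 in both, against 420 in both Cnot6l-/- MII libraries. They were also the least alike, with r = 0.865 across genes between replicates, against 0.949 in Cnot6l-/- MI. All 10 oocyte markers were above 0 in all 8 libraries. The 28 listed markers of cumulus and granulosa cells summed to between 0.0738% and 0.1241% of total FPKM, most of it Serpine2. Foxl2, Areg, Ereg and Lhcgr were at 0 in all 8, but other markers were present. Cyp19a1 stood between 32.8 and 100.8 FPKM in all 8. Ptx3 measured 17.1 and 15.3 FPKM at MII and 32.1 and 40.2 at MI in wild type. In Cnot6l-/- oocytes Ptx3 measured 0.35 and 0 at MII and 11.2 and 3.71 at MI. In pools of oocytes, less of an mRNA per oocyte, less of it on polysomes and fewer contributing oocytes cannot be told apart.

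Cnot6l itself measured 16.4 and 16.01 FPKM at MII and 23.5 and 16.5 at MI in Cnot6l-/- oocytes, against 65.2 and 49.4 at MII and 68.5 and 47.9 at MI in wild type. Its level was thus lower in both Cnot6l-/- groups, and its interaction was not called, at -0.26 ± 0.81 (SE; limma adjusted p = 0.909). Cnot6 was low, and with 2 of its 8 libraries at 0 it gave no call (limma adjusted p = 1.0).

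The interaction was called (limma, Benjamini-Hochberg adjusted p under 0.05) in both directions. Higher calls numbered 328, or 2.81% of tested genes, and lower calls 433, or 3.71%. The lowest adjusted p was 9.3e-08. The median over all tested genes was -0.25, so the scale has a general shift. Dividing each library by its median ratio to the gene means moved that median to 0.05 and gave 501 higher (4.29%) and 270 lower calls (2.31%). Rescaling to equal totals gave 442 higher and 300 lower calls, and quantile normalization gave 354 and 134. All 328 higher calls were also called higher after median scaling, 265 of the 433 lower calls (2.27% of tested genes) were also called lower, and 0 genes were called in opposite directions. Calls were concentrated in abundant mRNAs. Of the 2917 genes with the highest mean FPKM (above 56.1), 7.95% were called higher and 11.7% lower, against 0.103% and 0.24% of the 2917 with the lowest. In simulated data, 19 of 100 genes with an interaction of log2 2 were recovered and 7 of 100 with log2 1, so uncalled genes cannot be read as unchanged. Apart from these changes, the simulation gave a gene the same mean and the same pooled spread in every group. It therefore lacked the other stage changes and the less alike wild-type MII libraries, and its rates need not hold for the real data.

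**Figure D1:**
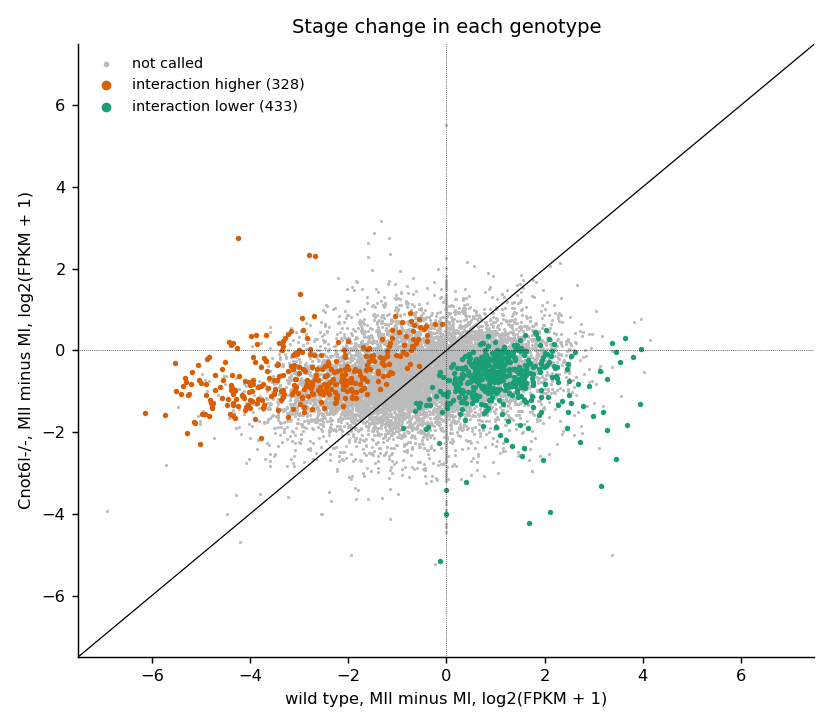
Each point is 1 of the 11667 tested genes, with the MII minus MI change in wild type on the x axis and in Cnot6l-/- oocytes on the y axis, both on log2(FPKM + 1). The 328 higher calls (orange) lie mostly far left, where wild type fell, and the 433 lower calls (green) mostly right of 0, where wild type rose; on the diagonal both genotypes changed equally.

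Most calls had a called change in wild type: 325 of the 328 higher calls fell there, and 318 of the 433 lower calls rose. Of all tested genes, 7.18% fell and 0.163% rose from MI to MII in Cnot6l-/- oocytes, against 16.4% that fell and 5.68% that rose in wild type. Among the 328 higher calls, 209 had no call in Cnot6l-/- oocytes and fell in wild type, 103 fell in both, 13 rose in Cnot6l-/- and fell in wild type, 2 rose in Cnot6l-/- with no call in wild type, and 1 had neither change called. Among the 433 lower calls, 262 had no call in Cnot6l-/- oocytes and rose in wild type, 81 fell in Cnot6l-/- with no call in wild type, 55 fell in Cnot6l-/- and rose in wild type, 28 had neither change called, 6 fell in both and 1 rose in both. The 209 had median changes of log2 -0.51 in Cnot6l-/- oocytes and -3.14 in wild type, and the 262 of -0.40 in Cnot6l-/- oocytes and 1.25 in wild type, so no call is not the absence of a change. The interaction is the difference of these same 2 changes, so the division describes the calls and is no further test of them.

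The wild-type changes mostly kept their calls after median scaling, and the Cnot6l-/- falls mostly did not. On that scale, 204 of the 209 wild-type falls and 262 of the 262 wild-type rises were still called. The genes that fell in Cnot6l-/- and rose in wild type numbered 55 as deposited and 2 after median scaling, with 0 in common. Over all tested genes, the median Cnot6l-/- change was -0.59 as deposited and -0.04 after median scaling. A fall in Cnot6l-/- oocytes below is therefore a fall on the deposited scale.

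Levels at the 3 stages describe the called sets. Since both sets were chosen on the changes from MI to MII, their MI and MII gaps follow in part from that choice and support nothing, while the GV levels did not enter the contrast. In the higher set, Cnot6l-/- oocytes had medians over genes of 7.64 (GV), 7.91 (MI) and 7.03 (MII), against 7.90, 7.08 and 4.32 in wild type (log2(FPKM + 1)). The median gap, Cnot6l-/- minus wild type, was -0.28, 0.80 and 2.92 at GV, MI and MII, against -0.06, 1.03 and 0.82 over all tested genes. Of the 328, 67 (20.4%) were listed at 0 in both wild-type MII libraries, against 2 (0.462%) of the 433 lower calls and 17.2% of all tested genes. The 17.2% is not matched for abundance. Median means were 172 FPKM in the higher set and 194 in the lower set, against 15.0 over all tested genes. Both sets were chosen on changes that include wild-type MII, so their shares at 0 follow in part from that choice. In the lower set, the medians were 7.36, 7.90 and 7.23 in Cnot6l-/- oocytes, against 7.46, 6.96 and 7.83 in wild type, so the gap was -0.05, 0.94 and -0.61. The gaps of both sets at MI were thus below that of all tested genes.

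**Figure D2:**
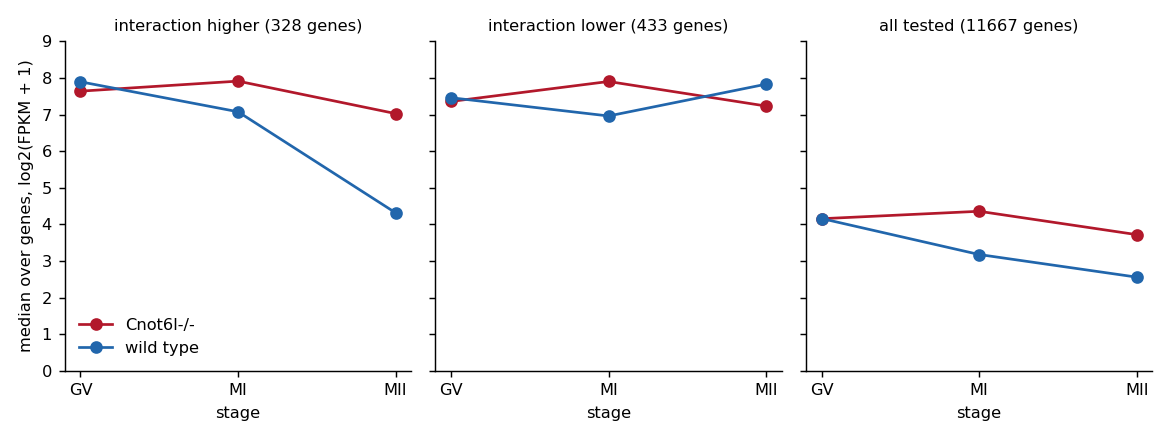
Median log2(FPKM + 1) over genes at GV, MI and MII in Cnot6l-/- (red) and wild-type (blue) oocytes, for the 328 higher calls, the 433 lower calls and all 11667 tested genes. The MI to MII slopes chose the sets; the higher set stands at 7.03 against 4.32 at MII, and in the lower set the lines cross between MI and MII.

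The CPE was counted in both sets, as a description with no test. With the motif searched in the last 100 bases of the annotated transcript, on the transcript strand only, 45 of 291 higher genes with such a UTR held a CPE (15.5%) and 121 of 400 lower genes did (30.3%), against 2125 of 10537 tested genes (20.2%) and 22.9% of those with a mean of at least 50 FPKM. The same count was divided by the wild-type change. Of genes that rose in wild type, 102 of 297 with a lower interaction held the motif (34.3%), against 115 of 328 with no interaction call (35.1%). Of genes that fell in wild type, the motif stood in 45 of 288 with a higher interaction (15.6%), against 165 of 1412 with no call (11.7%). A motif of AU-rich elements, TATTTAT, stood in the 3' UTR of 13.1% of higher and 24.8% of lower genes. It stood in 27.8% of all tested genes and in 21.8% of those with a mean of at least 50 FPKM. The share of the lower set was thus below the first of these backgrounds and above the second. These UTRs differed in length, with medians of 518 bases in the higher set and 742 in the lower set. The median was 1020 over all tested genes and 707 over those with a mean of at least 50 FPKM. A longer UTR has more room for a motif. TTTTAAT can run into the polyadenylation signal AATAAA, as it does in Dcp1a and E2f1. That signal or ATTAAA stood in the same window of 75.9% of higher, 86.8% of lower and 80.9% of all tested genes. Among those with a mean of at least 50 FPKM it was 83.0%. A match is only these letters in the annotated transcript, and no match says nothing of binding.

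**Figure D3:**
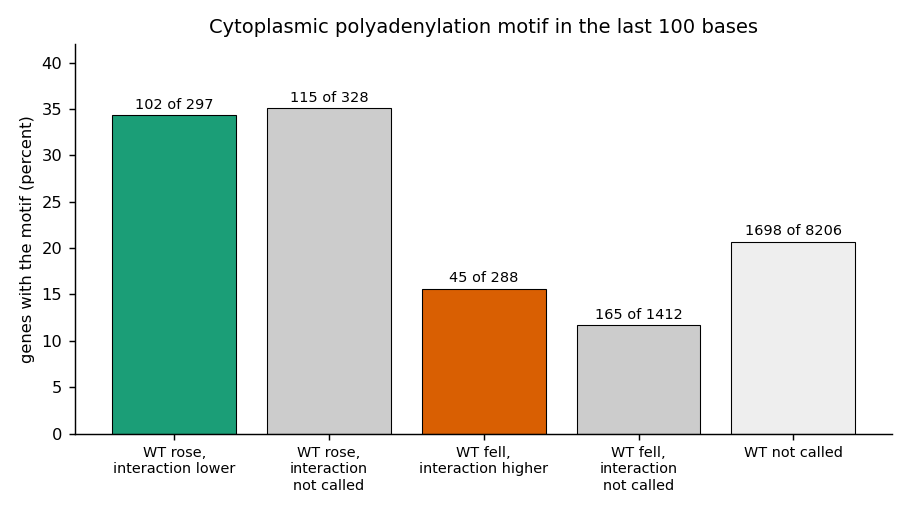
Share of genes (percent) with the CPE motif in the last 100 bases of the transcript, by the wild-type change from MI to MII and by whether the interaction was called, with the counts over each bar. The bars of genes that rose in wild type are alike with and without a lower interaction (34.3% and 35.1%), and those of genes that fell stand at 15.6% and 11.7%.

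Maternal-effect and egg-coat mRNAs were among the lists with the largest share of members called higher. Of 37 oocyte-restricted factors, 19 were called higher and 3 lower (Nlrp4f, Oas1d and Rfpl4), with a median interaction of 0.79. After median scaling 21 were called higher and 0 lower, with a median of 1.02 (limma adjusted p = 0.0847 for Nlrp4f, 0.0679 for Oas1d and 0.222 for Rfpl4). Of 10 genes of the zona pellucida and the subcortical maternal complex, the protein assembly under the egg membrane, 6 were called higher (Nlrp2, Ooep, Padi6, Tle6, Zp2 and Zp3) and 3 lower (Astl, Zbed3 and Zp1), with a median of 0.59, against 7 higher and 1 lower after median scaling. These lists hold very abundant mRNAs, with median means of 1832 and 2902 FPKM, so the 7.95% and 11.7% of the most abundant genes are the nearer background. Those genes start at 56.1 FPKM and the share called rose with abundance, so they are not matched to these lists either. The counts depend on how the spread of abundant genes was estimated. Without a trend of spread on abundance, 2 oocyte-restricted factors were called higher, and 1 gene of the zona and subcortical list.

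Ooep, a core member of the subcortical complex, measured 2167 and 2297 FPKM at MII and 3019.8 and 3072 at MI in Cnot6l-/- oocytes, against 210.3 and 239 at MII and 2093 and 1858 at MI in wild type. Its wild-type MII libraries stood far below the other 6, and its interaction of 2.68 ± 0.13 (SE; limma adjusted p = 1.22e-06) kept its call in every alternative tried. Npm2, the histone chaperone nucleoplasmin of the oocyte, measured 2428 and 2396 FPKM at MII and 3413 and 3635 at MI in Cnot6l-/- oocytes, against 488 and 338 at MII and 3207 and 3302 at MI in wild type. Its interaction was 2.45 ± 0.19 (SE; limma adjusted p = 4.96e-05), and it too kept its call in every alternative.
Padi6, which is needed for the lattices of the oocyte cytoplasm, measured 12708 and 13789 FPKM at MII and 19684 and 20275 at MI in Cnot6l-/- oocytes, against 2437 and 2295 at MII and 10193 and 10403 at MI in wild type. The groups did not overlap, and its interaction was 1.53 ± 0.063 (SE; limma adjusted p = 5.42e-07). Tle6, a partner of Ooep in the complex, measured 7451 and 7997 FPKM at MII and 13709.6 and 14163 at MI in Cnot6l-/- oocytes, against 1734 and 1643 at MII and 7175 and 7332 at MI in wild type, an interaction of 1.25 ± 0.073 (SE; limma adjusted p = 5.79e-06). For both, the mRNA fell in each genotype, by log2 -0.59 in Cnot6l-/- and -2.12 in wild type for Padi6 and log2 -0.85 in Cnot6l-/- and -2.10 in wild type for Tle6.
Zp3, a protein of the zona pellucida, had a smaller interaction of 0.76 ± 0.051 (SE; limma adjusted p = 1.69e-05). It measured 9657 and 9463 FPKM at MII and 17976 and 18339 at MI in Cnot6l-/- oocytes, against 3035 and 2992 at MII and 9431 and 9977 at MI in wild type. Bmp15, a growth factor secreted by the oocyte, measured 2392 and 2539.8 FPKM at MII and 2875 and 3114 at MI in Cnot6l-/- oocytes, against 869 and 871 at MII and 2205 and 2105 at MI in wild type, an interaction of 1.03 ± 0.098 (SE; limma adjusted p = 0.000226). Its partner Gdf9 measured 7599.8 and 7600.4 FPKM at MII and 11525 and 12239.6 at MI in Cnot6l-/- oocytes, against 5797 and 6006 at MII and 10680.1 and 11484 at MI in wild type, and its interaction of 0.26 ± 0.080 (SE; limma adjusted p = 0.0815) did not pass as deposited but did after median scaling, at 0.52. Padi6, Tle6 and Bmp15 lost their call without the abundance trend, and Zp3 lost it there and with quantile normalization.

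The 13 genes that rose in Cnot6l-/- and fell in wild type were Bcl2l10, Btg4, Dppa3, H1foo, Obox2, Omt2a, Omt2b, Pttg1, Sub1, Tcl1, Tcl1b1, Tcl1b3 and Tcl1b4. They were singled out after their values were seen. A CPE motif stood in 7 of the 13 (53.8%), against 20.2% of all tested genes and 22.9% of those with a mean of at least 50 FPKM. Omt2a and Omt2b hold the same site, and the share was not tested. After median scaling the 13 Cnot6l-/- rises were still called, and the wild-type falls of 5 were (Dppa3, H1foo, Obox2, Omt2a and Tcl1). With quantile normalization 11 of the 13 interactions were called, with 12 Cnot6l-/- changes above 0 and 12 wild-type changes below 0, and without the abundance trend 0 were, although all 13 kept both directions there.
Dppa3, also called Stella, which protects maternal DNA methylation after fertilization, measured 30232 and 29355 FPKM at MII and 17924 and 18745 at MI in Cnot6l-/- oocytes, against 10317 and 9526 at MII and 18125 and 19234 at MI in wild type. Its level at GV was 7683 and 7653 FPKM in Cnot6l-/- oocytes, against 9570 and 10118 in wild type, so it was at its highest in Cnot6l-/- MII oocytes. The change from MI to MII was log2 0.70 in Cnot6l-/- and -0.91 in wild type, an interaction of 1.61 ± 0.065 (SE; limma adjusted p = 5.42e-07).
Tcl1, a coactivator of the kinase AKT, measured 11473 and 11419.8 FPKM at MII and 6713 and 6819 at MI in Cnot6l-/- oocytes, against 5187 and 5110.1 at MII and 7544 and 7660.0 at MI in wild type. At MI its Cnot6l-/- libraries were below the wild-type ones and at MII they were above them, with an interaction of 1.32 ± 0.055 (SE; limma adjusted p = 5.42e-07). Its relatives Tcl1b1, Tcl1b3 and Tcl1b4 had interactions of 0.99, 1.46 and 1.67. Obox2, of the oocyte-specific homeobox family, measured 6244 and 5996 FPKM at MII and 4406 and 4296 at MI in Cnot6l-/- oocytes, against 1865 and 2026 at MII and 4179 and 4260.2 at MI in wild type, an interaction of 1.61 ± 0.079 (SE; limma adjusted p = 1.61e-06). Tcl1b and Obox genes lie in families of near copies, so how their reads were shared out is uncertain. Tcl1b3 was not called without the second Cnot6l-/- MII library (adjusted p = 0.0519) or the first Cnot6l-/- MI library (0.0556).
Btg4, the adaptor of CCR4-NOT itself, measured 8494 and 8474 FPKM at MII and 7094 and 7333 at MI in Cnot6l-/- oocytes, against 4836 and 5113 at MII and 6379 and 6704 at MI in wild type. It was the 1 higher call among 22 tested members of the CCR4-NOT and deadenylase list, with an interaction of 0.63 ± 0.064 (SE; limma adjusted p = 0.000339). Pttg1 encodes securin, the inhibitor of separase, and measured 28479.6 and 28735 FPKM at MII and 18959.5 and 18864 at MI in Cnot6l-/- oocytes, against 22801 and 23423 at MII and 30652 and 31147 at MI in wild type. As deposited, its Cnot6l-/- libraries were below wild type at MI and above it at MII, an interaction of 1.02 ± 0.050 (SE; limma adjusted p = 1.61e-06). After median scaling they were below wild type at both stages, and the wild-type change was log2 -0.05, with no call. The Pttg1 interaction was not called with quantile normalization (limma adjusted p = 0.127).
H1foo, the linker histone of the oocyte, had an interaction of 0.96 ± 0.063 (SE; limma adjusted p = 1.39e-05) as deposited and of -0.15 with quantile normalization, the 1 reversal among the genes named. The antiapoptotic Bcl2l10 had 0.79 ± 0.042 (SE; limma adjusted p = 2.83e-06). Omt2a, Omt2b and the transcription coactivator Sub1 had 1.42, 1.12 and 1.14.

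**Figure D4:**
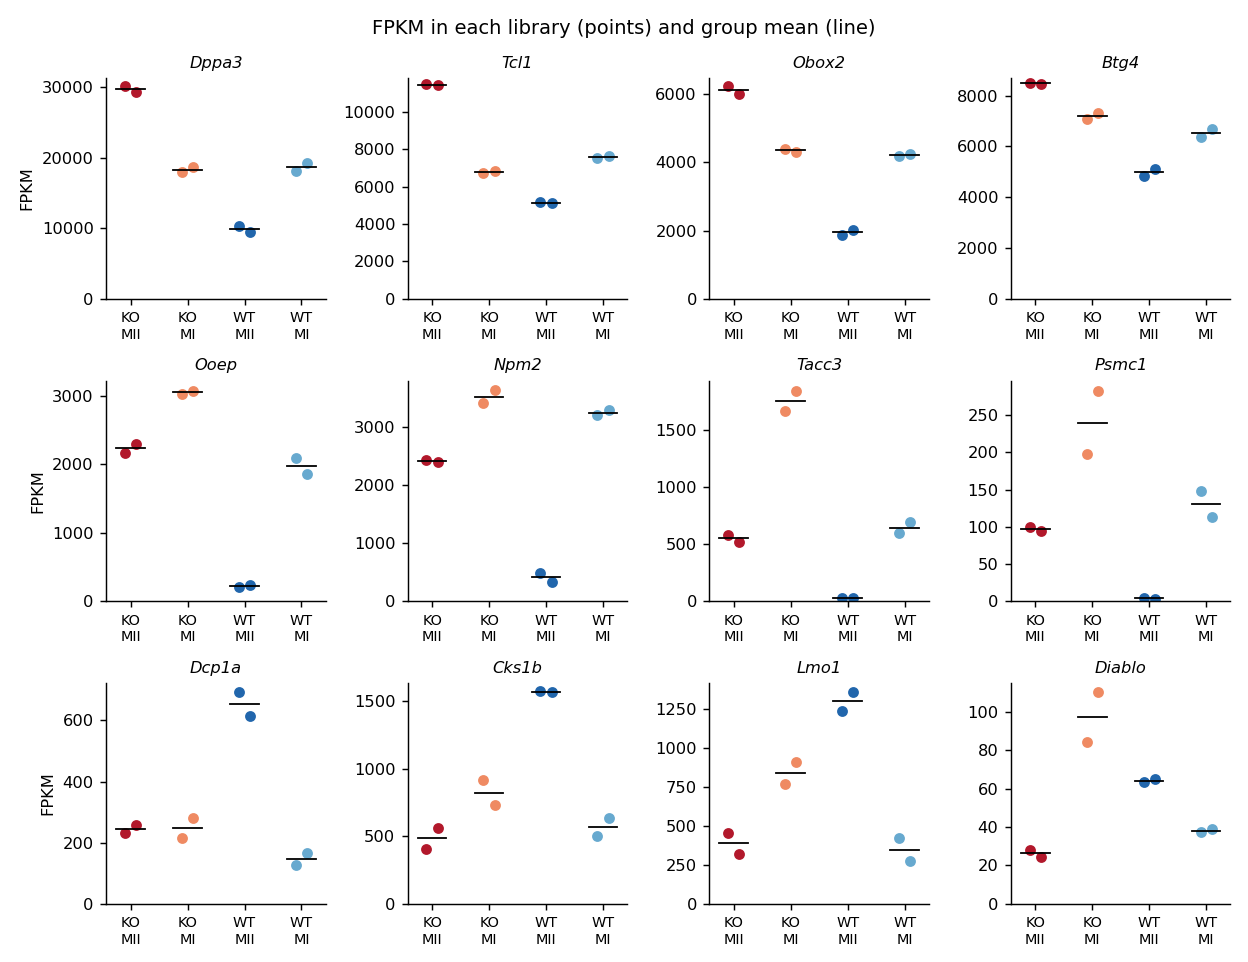
FPKM of 12 genes in each library (points) and the mean of each pair (line), for Cnot6l-/- MII, Cnot6l-/- MI, wild-type MII and wild-type MI. The first row rises in Cnot6l-/- and falls in wild type (Dppa3 to Btg4), the second falls far more in wild type (Ooep to Psmc1), and the last has lower interactions (Dcp1a to Diablo).

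The 10 largest higher interactions by the naming rule were Mrps34, Mrpl55, Wbscr16, Ydjc, S100a11, Noa1, Spa17, Rpp38, Actn3 and Rabl5. All 10 were listed at 0 in both wild-type MII libraries, so no fold is given. Mrpl55, a protein of the mitochondrial ribosome, measured 55.7 and 73.6 FPKM at MII and 76.2 and 84.04 at MI in Cnot6l-/- oocytes, against 0 and 0 at MII and 45.98 and 44.95 at MI in wild type (limma adjusted p = 0.000157). Rpp38, a protein of the tRNA-processing enzyme RNase P, measured 28.8 and 42.3 FPKM at MII and 67.6 and 46.5 at MI in Cnot6l-/- oocytes, against 0 and 0 at MII and 46.2 and 33.1 at MI in wild type (limma adjusted p = 0.000861). Both were present in the other 6 libraries. Noa1, a mitochondrial GTPase, and Spa17, first known from sperm, were too (limma adjusted p = 0.00642 for Noa1 and limma adjusted p = 0.00165 for Spa17).
Among genes above 0 in all 8 libraries, a choice made after the values were seen, the largest was Zw10, a kinetochore protein of the spindle checkpoint. It measured 93.7 and 87.4 FPKM at MII and 121 and 102 at MI in Cnot6l-/- oocytes, against 2.39 and 0.990 at MII and 50.03 and 67.97 at MI in wild type, an interaction of 4.22 ± 0.46 (SE; limma adjusted p = 0.000559). Hist1h2bc, a histone H2B gene of a family of near copies, measured 1019 and 1125 FPKM at MII and 727 and 779.7 at MI in Cnot6l-/- oocytes, against 44.9 and 66.5 at MII and 490.3 and 357 at MI in wild type, an interaction of 3.42 ± 0.29 (SE; limma adjusted p = 0.000104). Tacc3, which stabilizes spindle microtubules, measured 585 and 521 FPKM at MII and 1665 and 1843 at MI in Cnot6l-/- oocytes, against 31.2 and 32.3 at MII and 597 and 697 at MI in wild type. It fell in both genotypes, by log2 -1.66 in Cnot6l-/- and -4.30 in wild type, with an interaction of 2.64 ± 0.16 (SE; limma adjusted p = 7.97e-06). Zw10, Hist1h2bc and Tacc3 kept their calls in every alternative.

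Housekeeping lists held calls in both directions, with list medians between -0.14 and 0.36. The share called higher ran from 7.89% (mitochondrial ribosomal proteins) to 15.6% (proteasome). The share called lower ran from 4.44% (proteasome) to 9.09% (aminoacyl-tRNA synthetases). Of all tested genes 2.81% were called higher and 3.71% lower. These lists have median means of 55.6 to 374 FPKM, so the 7.95% and 11.7% of the most abundant genes are the nearer background, and most shares lie close to it or below it. After median scaling the split moved to the higher side, with 13 higher and 5 lower calls in cytosolic ribosomal proteins, 7 and 4 in mitochondrial ones, 11 and 1 in translation factors, 10 and 1 in the proteasome, 5 and 1 in chaperones and 2 and 0 in aminoacyl-tRNA synthetases. Of 45 tested proteasome genes 7 were called higher and 2 lower (Psmb3 and Psmd3), with a median interaction of 0.05 as deposited and 0.30 after median scaling. Psmc1 and Psmc2 are ATPases of the proteasome's base. Psmc1 measured 99.9 and 93.8 FPKM at MII and 198 and 282 at MI in Cnot6l-/- oocytes, against 4.35 and 3.35 at MII and 148 and 114 at MI in wild type, an interaction of 3.48 ± 0.35 (SE; limma adjusted p = 0.000338). Psmc2 measured 40.2 and 85.4 FPKM at MII and 94.4 and 121 at MI in Cnot6l-/- oocytes, against 1.56 and 0.750 at MII and 33.3 and 32.7 at MI in wild type, an interaction of 3.15 ± 0.51 (SE; limma adjusted p = 0.00521), and Psmb1 of the catalytic core had 2.23 ± 0.27 (SE; limma adjusted p = 0.000911). All 3 kept their calls in every alternative.
Of 56 translation factors, 8 were called higher and 3 lower (Eif1, Eif5b and Tpt1), with a median of 0.14. Eif3g, a subunit of the initiation factor that binds the small ribosomal subunit, measured 198 and 192 FPKM at MII and 295 and 302 at MI in Cnot6l-/- oocytes, against 20.6 and 17.2 at MII and 187 and 208 at MI in wild type, an interaction of 2.71 ± 0.24 (SE; limma adjusted p = 0.000142). Eif4h, a helper of the RNA helicase eIF4A, had 3.16 ± 0.34 (SE; limma adjusted p = 0.000489).
Of 82 cytosolic ribosomal protein genes 9 were called higher and 7 lower, with a median of 0.04. Rps27a, a ubiquitin fusion, measured 241 and 246 FPKM at MII and 374 and 422 at MI in Cnot6l-/- oocytes, against 19.9 and 27.6 at MII and 192 and 219 at MI in wild type, an interaction of 2.37 ± 0.26 (SE; limma adjusted p = 0.000581). Rpl5, which binds 5S rRNA, measured 1111 and 1242 FPKM at MII and 2385 and 2479.8 at MI in Cnot6l-/- oocytes, against 81.5 and 132 at MII and 825 and 886 at MI in wild type, an interaction of 1.98 ± 0.25 (SE; limma adjusted p = 0.00142). Both overlap other annotated genes and have many processed copies in the genome, so their values are uncertain. 
Of 78 nuclear genes of oxidative phosphorylation 7 were called higher and 6 lower, with a median of 0.29. After median scaling 14 were called higher and 3 lower, with a median of 0.55, and with quantile normalization 14 higher and 1 lower. Ndufb4, of respiratory complex I, measured 967 and 873 FPKM at MII and 973 and 1012 at MI in Cnot6l-/- oocytes, against 108 and 64.5 at MII and 335 and 365 at MI in wild type, an interaction of 1.95 ± 0.27 (SE; limma adjusted p = 0.00215). Mitochondrial ribosomal proteins had 6 higher and 6 lower calls of 76, and their median of -0.04 turned to 0.22 after median scaling.
Of 47 genes of DNA replication and licensing 4 were called higher (Dscc1, Fen1, Gmnn and Mcm5) and 3 lower (Cdc45, Pola2 and Prim2), and the median of -0.14 turned to 0.12 after median scaling. Mcm5, of the replicative helicase, measured 33.4 and 44.2 FPKM at MII and 87.3 and 104 at MI in Cnot6l-/- oocytes, against 0.560 and 0.540 at MII and 43.96 and 40.6 at MI in wild type, an interaction of 3.52 ± 0.43 (SE; limma adjusted p = 0.000992). Fen1, the flap endonuclease, had 3.26 ± 0.58 (SE; limma adjusted p = 0.00889), with exons that overlap other genes and no call without the first Cnot6l-/- MI library (adjusted p = 0.0528), and Dscc1, of a clamp loader, was at 0 in both wild-type MII libraries (limma adjusted p = 0.000226). Of 37 chaperones 3 were called higher and 3 lower, and the median of -0.03 turned to 0.24 after median scaling, with Dnaja1, an HSP40 partner of HSP70, at 1.99 ± 0.23 (SE; limma adjusted p = 0.000708) and overlapping other annotated genes. Aminoacyl-tRNA synthetases had 2 higher and 2 lower calls of 22, with a median of 0.36.

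**Figure D5:**
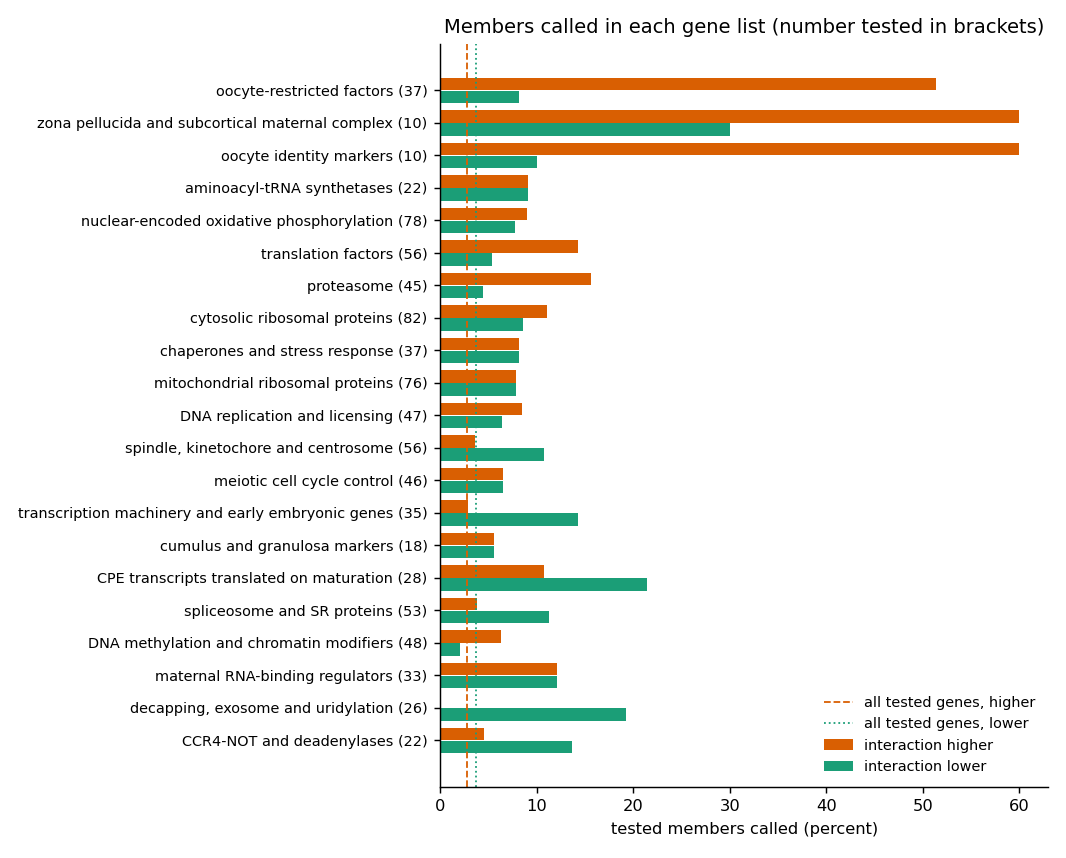
Percent of the tested members of each gene list with a higher (orange) or lower (green) interaction, ordered by the list's median interaction, with all tested genes as vertical lines at 2.81% and 3.71%. The oocyte lists at the top have the largest shares of higher calls (19 of 37, 6 of 10 and 6 of 10), and decapping, exosome and uridylation have 0 higher and 5 lower of 26. The oocyte lists share genes: each higher call among the oocyte identity markers is also counted in another oocyte list. The lines are not matched for abundance: of the 2917 most abundant genes 7.95% were called higher and 11.7% lower.

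Lists of mRNA decay factors held more lower than higher calls, and most members had no call. Of 26 genes of decapping, the exosome and uridylation, 0 were called higher by limma (0 also at an unadjusted p under 0.05) and 5 lower (Dcp1a, Edc4, Exosc2, Lsm1 and Lsm14a; 19.2%, against 3.71% of all tested genes), with a median of -0.44. Of 22 members of the CCR4-NOT and deadenylase list, 1 was called higher (Btg4) and 3 lower (Angel2, Ccrn4l and Cnot7; 13.6%), with a median of -0.48. Relative to the median of all tested genes these are -0.19 and -0.23. The lists have median means of 56.9 and 45.6 FPKM. Lower calls made up 11.7% of the 2917 most abundant genes (above 56.1 FPKM) and 2.26% of the next 2916. The 3.71% of all tested genes is therefore not a background matched for abundance. After median scaling 1 member of the decapping list (Dcp1a) and 2 of the deadenylase list (Angel2 and Ccrn4l) were still called lower, and Cnot7 was not. With quantile normalization the deadenylase median was 0.01 and 0 were called lower.
Dcp1a, a coactivator of the decapping enzyme, measured 232 and 258 FPKM at MII and 217 and 281 at MI in Cnot6l-/- oocytes, against 693 and 615 at MII and 128 and 165 at MI in wild type. The 2 Cnot6l-/- groups overlapped while both wild-type MII libraries stood above all others. The interaction was -2.17 ± 0.25 (SE; limma adjusted p = 0.000751) and kept its call in every alternative. Ccrn4l, or nocturnin, measured 210.1 and 117 FPKM at MII and 254 and 272 at MI in Cnot6l-/- oocytes, against 326 and 333 at MII and 120.0 and 196 at MI in wild type, an interaction of -1.84 ± 0.39 (SE; limma adjusted p = 0.0216). Angel2, a relative of the CCR4 enzymes, measured 296 and 248 FPKM at MII and 256 and 316 at MI in Cnot6l-/- oocytes, against 314 and 367 at MII and 159 and 123 at MI in wild type, an interaction of -1.34 ± 0.28 (SE; limma adjusted p = 0.0179). Cnot7 measured 412 and 445 FPKM at MII and 518 and 560.3 at MI in Cnot6l-/- oocytes, against 484 and 608 at MII and 354 and 381 at MI in wild type, an interaction of -0.89 ± 0.20 (SE; limma adjusted p = 0.0281), which was not called after median scaling, at -0.64. Ccrn4l lost its call in 7 of 21 alternatives, among them without either Cnot6l-/- MI library (adjusted p = 0.0784 and 0.0939), without the second Cnot6l-/- MII library (0.063) and without the first wild-type MI library (0.0614). Angel2 lost it in 5, among them without the second library of Cnot6l-/- MII (0.0774), of Cnot6l-/- MI (0.0936) and of wild-type MI (0.0513). Cnot7 lost it in 11, with adjusted p between 0.0512 and 0.123 when any Cnot6l-/- or wild-type MI library, or any Cnot6l-/- MII library, was left out. Zfp36l2 was near 0 in all 8 libraries and had no call.

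Among 28 mRNAs known to be translated through CPEs on maturation, 3 were called higher (Btg4, Ccno and Tcl1) and 6 lower (Bub1b, Ccnb1, Cnot7, Dcp1a, Plat and Wee2). These are 10.7% and 21.4%, against 2.81% and 3.71% of all tested genes and 7.95% and 11.7% of the 2917 most abundant. The list's median mean was 289 FPKM, so the last 2 shares are the nearer background. Its median interaction was -0.34 as deposited, -0.08 after median scaling and 0.03 with quantile normalization. Wee2, the oocyte kinase that inhibits CDK1, measured 264 and 283 FPKM at MII and 347 and 349.8 at MI in Cnot6l-/- oocytes, against 379 and 361 at MII and 213 and 137 at MI in wild type, an interaction of -1.46 ± 0.27 (SE; limma adjusted p = 0.0107) that was not called without either Cnot6l-/- MI library (adjusted p = 0.051 and 0.0525). Ccnb1, cyclin B1, measured 3025 and 2934 FPKM at MII and 3218 and 3295 at MI in Cnot6l-/- oocytes, against 2709 and 2911 at MII and 2096 and 2122 at MI in wild type. Its interaction of -0.54 ± 0.13 (SE; limma adjusted p = 0.0296) was not called after median scaling, at -0.29, nor in 12 other alternatives, among them without any 1 of the Cnot6l-/- MII, Cnot6l-/- MI or wild-type MI libraries (adjusted p = 0.0681 to 0.121), the second wild-type MII library (0.0608) or either wild-type GV library (0.0515 and 0.051). Mos, the kinase upstream of MAPK in the oocyte, measured 1977 and 2205 FPKM at MII and 2391 and 2413 at MI in Cnot6l-/- oocytes, against 2238 and 2088 at MII and 2219 and 2281 at MI in wild type, with no call at -0.14 ± 0.11 (SE; limma adjusted p = 0.527).

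Of 46 genes of meiotic cell cycle control, 3 were called higher (Anapc2, Cdk1 and Pttg1) and 3 lower (Ccnb1, Cks1b and Wee2). That is 6.52% each way, at a median mean of 74.0 FPKM. Of all tested genes 2.81% were called higher and 3.71% lower, and of the 2917 most abundant 7.95% and 11.7%. Cks1b, the small subunit bound to cyclin-dependent kinases, measured 407 and 564 FPKM at MII and 915 and 729 at MI in Cnot6l-/- oocytes, against 1575 and 1568 at MII and 502 and 639 at MI in wild type. Its wild-type MII libraries were the highest of the 8, and the interaction of -2.24 ± 0.26 (SE; limma adjusted p = 0.000861) kept its call in every alternative. Cdk1 measured 46.2 and 34.3 FPKM at MII and 174 and 184 at MI in Cnot6l-/- oocytes, against 2.16 and 3.67 at MII and 53.96 and 49.3 at MI in wild type, an interaction of 1.63 ± 0.41 (SE; limma adjusted p = 0.0412) that lost its call in 13 of 21 alternatives, among them without any 1 library outside wild-type MII (adjusted p = 0.0545 to 0.158). Of 56 genes of the spindle, kinetochore and centrosome 2 were called higher (Birc5 and Tacc3) and 6 lower (Bub1b, Cdca8, Haus4, Nuf2, Prc1 and Racgap1). Their shares of 3.57% and 10.7%, at a median mean of 94.3 FPKM, were below those of the most abundant genes. Racgap1, of the centralspindlin complex, measured 108 and 91.9 FPKM at MII and 201 and 245 at MI in Cnot6l-/- oocytes, against 161 and 150.0 at MII and 90.3 and 72.04 at MI in wild type, an interaction of -2.09 ± 0.39 (SE; limma adjusted p = 0.0112) that was not called without the second Cnot6l-/- MI library (adjusted p = 0.0652) or the second Cnot6l-/- MII library (0.0519). Cdca8, or borealin, of the chromosomal passenger complex with Birc5, had -1.25 ± 0.21 (SE; limma adjusted p = 0.00671).

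Other lower interactions had the wild-type rise in common. Taf10, a subunit of TFIID, measured 14.6 and 7.07 FPKM at MII and 35.00 and 31.9 at MI in Cnot6l-/- oocytes, against 38.2 and 85.2 at MII and 5.21 and 7.72 at MI in wild type, an interaction of -4.60 ± 0.67 (SE; limma adjusted p = 0.00292). Its exons overlap those of Ilk on the other strand, and whether counting used strand is not given in the sources used here. E2f1, a transcription factor of the cell cycle, measured 16.9 and 17.6 FPKM at MII and 50.5 and 41.01 at MI in Cnot6l-/- oocytes, against 63.8 and 37.8 at MII and 8.50 and 4.55 at MI in wild type, an interaction of -4.14 ± 0.78 (SE; limma adjusted p = 0.0115) that was not called without the first Cnot6l-/- MI library (adjusted p = 0.0619). Rnf145, a ubiquitin ligase, measured 15.1 and 9.35 FPKM at MII and 13.02 and 10.2 at MI in Cnot6l-/- oocytes, against 23.6 and 41.3 at MII and 0.860 and 1.31 at MI in wild type, an interaction of -3.92 ± 0.68 (SE; limma adjusted p = 0.00738). Ube2d1, a ubiquitin-conjugating enzyme, and Ehmt2, the histone methyltransferase G9a, were listed at 0 in both wild-type MI libraries (limma adjusted p = 0.00534 for Ube2d1 and limma adjusted p = 0.00377 for Ehmt2).
Lmo1 and Arf5 had the largest lower interactions among genes that rose in wild type and fell in Cnot6l-/- oocytes and were above 0 in all 8 libraries, a rule set after the values were seen. Lmo1, a LIM-domain cofactor of transcription, measured 457 and 321 FPKM at MII and 773 and 914 at MI in Cnot6l-/- oocytes, against 1240.2 and 1363 at MII and 422 and 274 at MI in wild type, an interaction of -3.06 ± 0.30 (SE; limma adjusted p = 0.000237). Arf5, a GTPase of vesicle traffic, measured 195 and 133 FPKM at MII and 429 and 323 at MI in Cnot6l-/- oocytes, against 462 and 543 at MII and 168 and 137 at MI in wild type, an interaction of -2.92 ± 0.30 (SE; limma adjusted p = 0.000392). As deposited, both were higher in Cnot6l-/- oocytes at MI, where the median gap over all tested genes was log2 1.03, and higher in wild type at MII. After median scaling the genotypes overlapped at MI in both genes, and wild type was still higher at MII. Igf2bp2, which binds and stabilizes mRNAs, measured 73.6 and 133 FPKM at MII and 197 and 186 at MI in Cnot6l-/- oocytes, against 132 and 124 at MII and 55.4 and 64.4 at MI in wild type. As deposited, its MII libraries overlapped between genotypes while at MI it was higher in Cnot6l-/- oocytes, an interaction of -2.03 ± 0.36 (SE; limma adjusted p = 0.00831). After median scaling Igf2bp2 was lower in Cnot6l-/- oocytes at MII and still higher at MI.

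As deposited, 81 lower calls fell in Cnot6l-/- oocytes with no call in wild type, and after median scaling 8 did. Diablo, also called Smac, a mitochondrial protein that promotes apoptosis when released, measured 28.01 and 24.4 FPKM at MII and 84.5 and 111 at MI in Cnot6l-/- oocytes, against 63.4 and 64.9 at MII and 37.2 and 39.04 at MI in wild type. The Cnot6l-/- change was log2 -1.85, against 0.74 in wild type, and after median scaling -1.23 against 1.11, and the interaction of -2.58 ± 0.35 (SE; limma adjusted p = 0.00197) kept its call in every alternative. Its exons overlap those of 2 genes on the other strand. Spp1, or osteopontin, was at 0 in the 4 GV libraries and measured 9.92 and 11.6 FPKM at MII and 56.6 and 59.9 at MI in Cnot6l-/- oocytes, against 129 and 111 at MII and 65.9 and 33.5 at MI in wild type, an interaction of -3.67 ± 0.64 (SE; limma adjusted p = 0.00784). Its changes after median scaling were log2 -1.72 in Cnot6l-/- oocytes and 1.71 in wild type. Nupr1, a nuclear protein of the stress response, was at 0 in both Cnot6l-/- MII libraries, with 35.9 and 33.6 FPKM in Cnot6l-/- MI, against 47.0 and 65.2 in wild-type MII and 50.3 and 73.2 in wild-type MI (limma adjusted p = 0.00204).

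The remaining lists are given by their counts, beside 2.81% higher and 3.71% lower of all tested genes. Of the 2917 most abundant genes 7.95% were called higher and 11.7% lower. Maternal RNA-binding regulators had 4 higher (Cpeb1, Pabpn1l, Paip2 and Paip2b) and 4 lower calls (Igf2bp2, Paip1, Ythdf3 and Zar1) of 33. After median scaling 5 were called higher and 1 lower. Paip2 and Paip2b inhibit poly(A)-binding protein, and Paip1 promotes translation with it. Paip2b lost its call in 13 of 21 alternatives (adjusted p up to 0.161), and Paip1 had none after median scaling (limma adjusted p = 0.0968). Chromatin modifiers had 3 higher (Dnmt3l, Hdac3 and Zfp57) and 1 lower (Ehmt2) of 48. Spliceosome and SR proteins had 2 higher and 6 lower of 53, and transcription machinery and early embryonic genes had 1 higher (Polr2d) and 5 lower of 35. Of 18 tested cumulus and granulosa markers 1 was called higher (Inha) and 1 lower (Serpine2). Inha, the inhibin alpha subunit, measured 4.46 and 12.7 FPKM at MII and 23.4 and 25.03 at MI in Cnot6l-/- oocytes, against 0 and 0 at MII and 22.7 and 37.6 at MI in wild type (limma adjusted p = 0.0147). It was not called without either Cnot6l-/- MI library (adjusted p = 0.0702 and 0.0633). The part of somatic RNA in other results was not tested. Theca, stroma, endothelium and blood markers had 0 limma calls of 5 tested (1 at an unadjusted p under 0.05), 0 mitochondrially encoded genes were tested, and of the 10 oocyte identity markers 6 were called higher and 1, Zp1, lower. The called identity markers are all counted in the oocyte lists above as well.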

How the data were processed

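FPKM values deposited by the authors for 23235 genes in 12 libraries were used as they stood. The submitters' processing notes name mouse build mm9 and, without their roles, Cufflinks 2.2.1, TopHat2 2.0.11, Bowtie2 2.1.0 and CASAVA 1.8. Neither read depth nor strand nor annotation was given in the sources used here, so precision was judged from replicates.

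Values were transformed to log2(FPKM + 1), and genes with a mean of at least 1 FPKM (11667) were fitted with limma 3.58.1 in R 4.3.3, with 6 group means over all 12 libraries (residual df 6) and an abundance trend in the empirical Bayes step. This understates changes of low genes. Tests were 2-sided, with Benjamini-Hochberg adjustment over all tested genes. For the second scale each library was divided by its median ratio to the gene mean over genes with a mean of at least 10 FPKM. The fit was tested on simulated data.

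Lists carried no test. Members, lists and the contrast were chosen with earlier results of these data known. Genes were named by size of interaction: the 10 largest each way and up to 3 a list, called on both scales, with no overlap of the pairwise MII minus MI changes between genotypes, at least 5 FPKM in the highest group, and no group with 1 library at 0 and the other above 20, plus 10 fixed genes. Genes chosen later are marked. Alternatives were other pseudocounts (0.1), filters (none, 5 FPKM), scalings, libraries, spread and a replicate term. Replicate numbers did not pair libraries, since correlations of same-numbered deviations ran from -0.03 to 0.05. Transcript features came from GENCODE mouse release 1, in which 97.7% of tested symbols were found.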

Additional observations from a re-analysis of the deposited data

Results flagged for a closer look

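Every called interaction is a difference between the genotypes' stage changes, and the 328 higher and 433 lower calls rest on that test. The genes singled out are repeated here by size, in log2 units where all 8 MI and MII libraries were above 0.

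Oocyte genes with a higher interaction were Ooep (2.68), Npm2 (2.45), Dppa3 (1.61), Obox2 (1.61), Padi6 (1.53), Tle6 (1.25), Bmp15 (1.03) and Zp3 (0.76). The other genes that rose in Cnot6l-/- and fell in wild type were Tcl1b4 (1.67), Tcl1b3 (1.46), Omt2a (1.42), Tcl1 (1.32), Sub1 (1.14), Omt2b (1.12), Pttg1 (1.02), Tcl1b1 (0.99), H1foo (0.96), Bcl2l10 (0.79) and Btg4 (0.63).

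Genes of general cell function with a higher interaction were Zw10 (4.22), Mcm5 (3.52), Psmc1 (3.48), Hist1h2bc (3.42), Fen1 (3.26), Eif4h (3.16), Psmc2 (3.15), Eif3g (2.71), Tacc3 (2.64), Rps27a (2.37), Psmb1 (2.23), Dnaja1 (1.99), Rpl5 (1.98), Ndufb4 (1.95) and Cdk1 (1.63).

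Lower interactions were those of Taf10 (-4.60), E2f1 (-4.14), Rnf145 (-3.92), Spp1 (-3.67), Lmo1 (-3.06), Arf5 (-2.92), Diablo (-2.58), Cks1b (-2.24), Dcp1a (-2.17), Racgap1 (-2.09), Igf2bp2 (-2.03), Ccrn4l (-1.84), Wee2 (-1.46), Angel2 (-1.34), Cdca8 (-1.25), Cnot7 (-0.89) and Ccnb1 (-0.54).

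With a library at 0, the difference is given by its test alone (limma, Benjamini-Hochberg adjusted p). Among higher interactions it was 0.000157 for Mrpl55, 0.000861 for Rpp38, 0.000226 for Dscc1, 0.00642 for Noa1, 0.00165 for Spa17 and 0.0147 for Inha. Among lower ones it was 0.00204 for Nupr1, 0.00534 for Ube2d1 and 0.00377 for Ehmt2.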

How the results depend on the processing

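The deposited scale gave 328 higher and 433 lower calls. Median scaling gave 501 and 270, and quantile normalization 134 lower calls. A fit of the 8 MI and MII libraries alone gave 186 higher calls as deposited, and 265 higher and 155 lower after median scaling. Without the abundance trend 100 higher and 80 lower calls were made, of which 95 and 72 were among the main ones. Other pseudocounts, filters and equal totals kept both counts within 1.5 times.

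Leaving out 1 library moved the counts from 147 to 650 higher and from 169 to 575 lower as deposited, and from 225 to 1007 higher and from 85 to 407 lower after median scaling; the lone library was then assumed to vary like the other groups. As deposited, higher and lower calls were 184 and 227 without Cnot6l-/- MII replicate 1, 177 and 219 without replicate 2, 147 and 177 without Cnot6l-/- MI replicate 1, and 161 and 169 without replicate 2. They were 650 and 575 without wild-type MII replicate 1, and 619 and 526 without replicate 2. The cause was not tested.

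The replicate numbers did not pair the libraries. With the replicate block the counts were 308 higher and 405 lower as deposited, and 466 and 231 after median scaling.

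Of 106 named genes with a call, 39 kept it in every alternative that tested them (Ehmt2, Slc25a28 and Wbscr16 were not tested at a mean of at least 5 FPKM), and 58 lost it without the abundance trend. H1foo alone reversed, to -0.15 with quantile normalization. The main limits are 2 libraries a group, unknown read depth, and the many zeros of wild-type MII.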
